A study of Danio rerio with 4 samples.

Results

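The genes described here are those of zebrafish fibroblast growth factor (FGF) signalling, taken by name: every symbol in the gene list that begins with fgf and a digit, with fgfr or with fgfbp. The rule found 46 of the 39988 genes listed and used no measured value. They comprise 25 genes of secreted ligands, 7 genes of the intracellular group (*fgf11a* to *fgf14*), 6 genes of receptors with a kinase, the kinase-free receptor genes *fgfrl1a* and *fgfrl1b*, 4 genes of binding proteins, and 2 genes (*fgfr1op* and *fgfr1op2*) that share only the start of the symbol, since they were named for a fusion partner of a human receptor and encode neither ligand nor receptor.

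Secreted FGFs bind receptor tyrosine kinases on neighbouring cells together with heparan sulfate, a sugar chain of the cell surface and matrix, and the receptors act largely through the MAP kinase cascade. FGF binding proteins are secreted, and in mammals some of them release FGFs held by heparan sulfate in the matrix. Whether *fgfbp2a* and *fgfbp2b* do so was not tested. In the skull the pathway is known above all from human genetics: gain-of-function changes in FGF receptors cause craniosynostosis, the early loss of sutures, and changes in *FGFR3* slow the growth of cartilage and cause achondroplasia.

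The cells came from dissected calvaria, the skull roof with its bone, cartilage, skin and vessels, and were profiled in 4 droplet libraries, 2 of adult fish (22 to 25 mm standard length, sutures formed) and 2 of juvenile fish (9 to 11 mm, growing bone fronts). Each adult library pooled 10 fish and each juvenile library 20 fish, so that a library is a pool and not an animal. Adult replicate 1 and juvenile replicate 1 came from *cdh1*:mlanYFP reporter fish (ecadYFP in the labels) and were depleted of YFP+ cells, juvenile replicate 2 came from *sp7*:GFP fish, in which the osteoblast gene *sp7* drives the reporter, and was depleted of GFP+ cells, and adult replicate 2 came from Tubingen fish without a reporter gate. All 4 were sorted for DAPI-negative, that is live, cells, and no library was treated or mutant. The paper gives depletion of epithelial cells as the purpose of the reporter sort. The epithelial-gated cells of the libraries depleted of YFP+ cells are thus those that remained after it. Stage, sort and fish line differ together in all but the pair depleted of YFP+ cells, so they cannot be told apart in the other comparisons.

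After filtering, 2072 and 2994 adult cells and 8313 and 7932 juvenile cells remained, with medians of 1928.5 to 2815 UMIs per adult cell and 1878 to 2063.5 per juvenile cell. A UMI (unique molecular identifier) stands for 1 captured RNA molecule, and levels are given as CPM, the UMIs of a gene per 1000000 UMIs of the same cells. Cells were assigned by marker genes to 11 classes, called gates here: mesenchyme, osteoblast, cartilage, dermal fibroblast, endothelial, vascular smooth muscle, neuron, radial glia, myelinating glia, epithelial and immune. No FGF gene was used for gating, and 13556 of 21311 cells (63.6%) fell in exactly 1 gate. Sums of fewer than 10 cells entered no test, which left out juvenile replicate 2 for osteoblasts (9 cells), adult replicate 2 for cartilage (4 cells) and both adult libraries for myelinating glia (7 and 2 cells). The libraries shared 14 to 104 cell barcodes in pairs.

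The gates were unequal between stages. Cartilage-gated cells numbered 12 and 4 in the adult libraries, against 375 and 410 in the juvenile libraries. Neuron-gated cells numbered 58 and 13 in the adult libraries, against 1196 and 2139 in the juvenile ones. Mesenchyme was the best filled, with 659 and 937 adult and 888 and 666 juvenile cells. Every gated cell held at least 2 markers of its list (3 for cartilage, neurons, immune cells and vascular smooth muscle), but some sums lacked single genes. In adult replicate 2, the 10 radial glia cells had *fabp7a* at 368 CPM, against 7931 to 10574 CPM in the other 3 libraries. They had *gfap* and *slc1a3b* at 0. In the same library the 4 cartilage cells had *matn1* at 0, the endothelial cells *cdh5* and the immune cells *lyz* and *mpeg1.1*. These cells held other markers of their lists, so the zeros alone do not show a wrong label. The 9 osteoblast-gated cells of juvenile replicate 2, the library depleted of *sp7*:GFP+ cells, had *ifitm5* and *bglap* at 0.

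The level in immune-gated cells is given beside the others as a stand-in for the level that free RNA in the droplets can give, which was not measured. That level can also hold RNA of the gated cells themselves or of mixed droplets, and these parts were not separated. In the stage tests the libraries are the replicates, so p-values measure the spread between pooled libraries. Leaving a library out of a stage test leaves its stage without a spread of its own, so such a p-value is no firmer evidence. Tests between gates, and of stage differences between gates, take out each library's own level by fitting library as a block. Their p-values measure the scatter of the gate sums that remains. Groups of 2 against 2 cannot pass p = 0.05 in an exact permutation test, and edgeR's quasi-likelihood test, which shares the estimate of the spread between genes, was used throughout, its p-values adjusted by Benjamini and Hochberg's method across every gene in the fit. A gene is called when its adjusted p is below 0.05.

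The family was read unevenly. Gated cells held 75682 of its 88318 UMIs (85.7%). The 4 binding protein genes alone held 62739 of these, the 6 kinase receptor genes 6398, the 7 intracellular FGF genes 2073, the 2 genes matched by name only 1936, the 25 ligand genes 1617 and the kinase-free receptor genes 919. At least 20 UMIs in gated cells were found for 33 genes, 1 to 19 UMIs for 11 genes, and none for *fgf6b* and *fgf19*. For those 2, 0 UMIs over all kept cells allow a level of up to 0.0503 CPM, a limit that covers counting error only, like every interval given here.

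**Figure D1:**
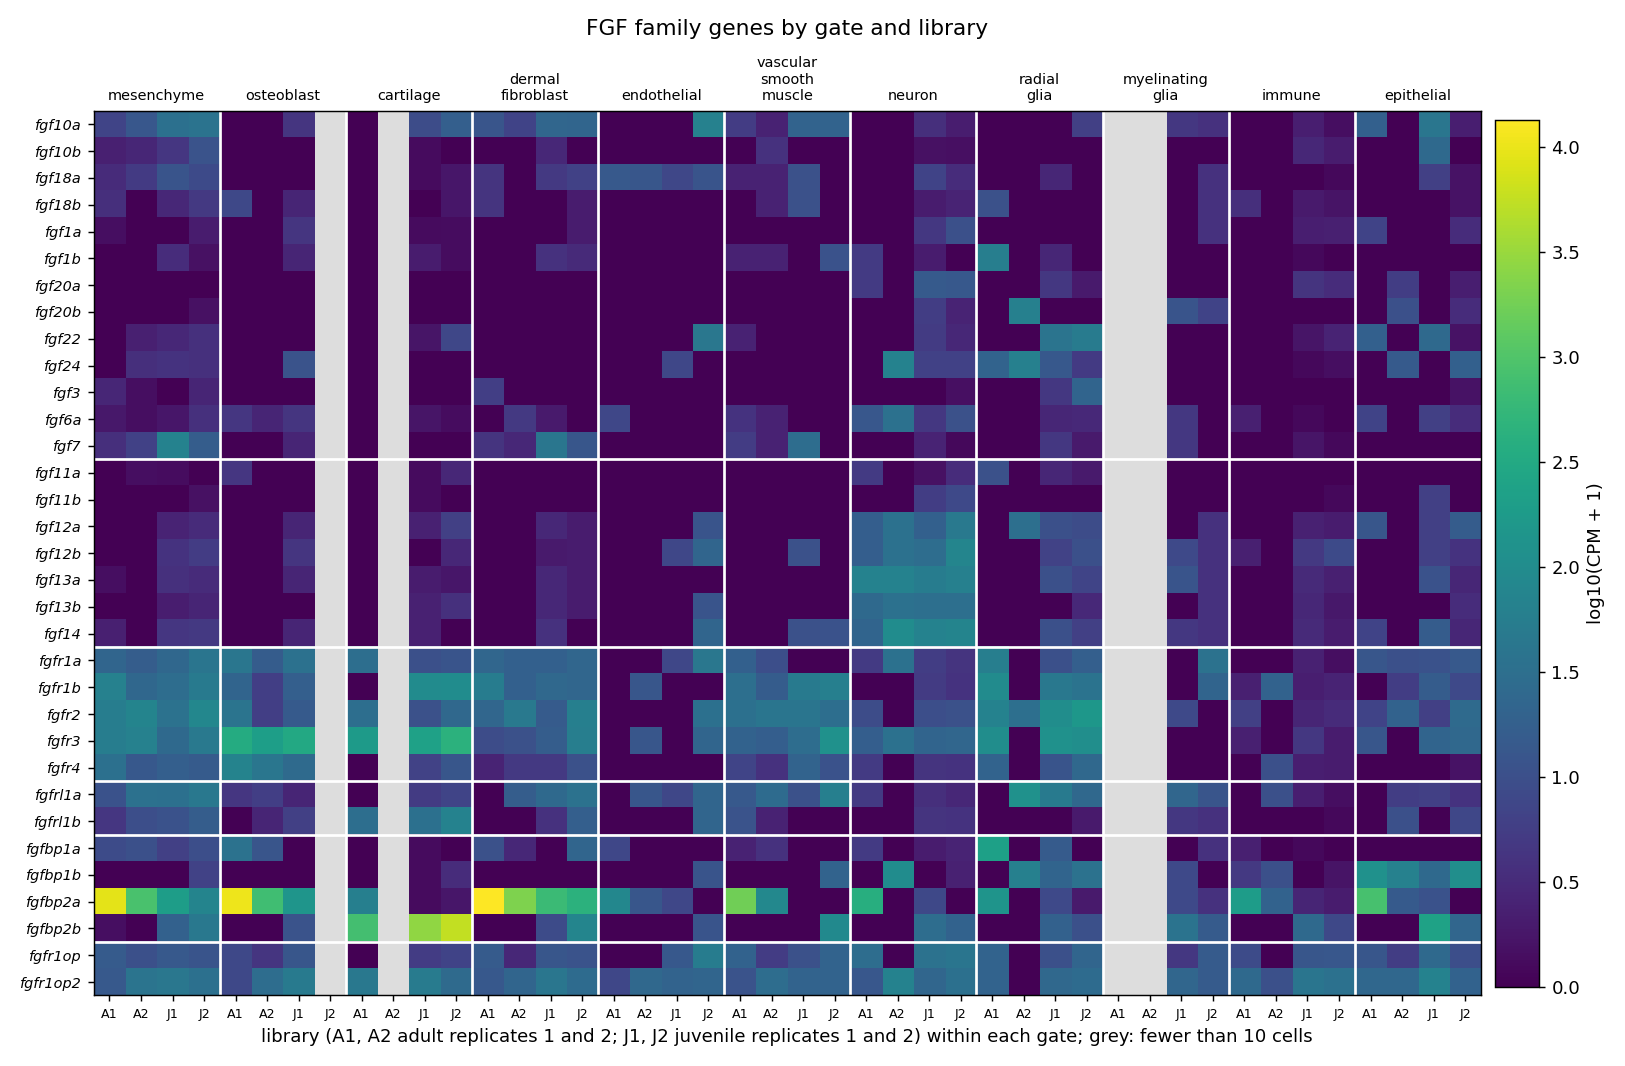
Heat map of the 33 genes with at least 20 UMIs in gated cells (rows, ordered by role) in each gate and library (columns; A1 and A2 adult, J1 and J2 juvenile), coloured by log10(CPM + 1), with grey for fewer than 10 cells. The intracellular FGF genes are bright in the neuron columns, *fgfbp2b* in the juvenile cartilage columns (2813 and 5537 CPM) and *fgfbp2a* in adult mesenchyme, osteoblast and dermal fibroblast columns, brightest in adult replicate 1.

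Among the binding proteins, *fgfbp2a* (LL0000010312) and *fgfbp2b* (LL0000010313) showed opposite differences between stages. In mesenchyme, *fgfbp2a* rose in adult cells and *fgfbp2b* fell, and these were the only calls among the 15 family genes tested there, where 1.55% of all 9686 genes tested were called. Both genes were also called higher in different gates, *fgfbp2a* in mesenchyme, osteoblasts and dermal fibroblasts and *fgfbp2b* in cartilage. Outside adult replicate 1, a minority of the cells in each of the *fgfbp2a* gates had a UMI of it.

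In mesenchyme-gated cells, *fgfbp2a* stood at 8962 and 872 CPM in the adult libraries, against 201 and 71.7 CPM in the juvenile libraries. Both adult values lay above both juvenile ones, and the 2 adult libraries themselves were far apart, adult replicate 1 being the one depleted of YFP+ cells. The difference was 5.30 ± 1.04 on the log2 scale (SE, adult minus juvenile, adjusted p = 0.0454 in edgeR's quasi-likelihood test). Without adult replicate 1, which leaves 1 adult library and so no spread between adult libraries, the difference was 3.18. Without the other libraries in turn it was between 4.67 and 6.39. The call was lost with a stricter gate (5.17, adjusted p = 0.0757) and with a looser gate (5.27, adjusted p = 0.0557). Between the 2 libraries depleted of YFP+ cells it was 5.48, a value with no test.

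The number of cells with a UMI and the UMIs per cell moved together for *fgfbp2a*. In mesenchyme-gated cells, 71.5% and 11.95% of adult cells had at least 1 UMI, against 6.87% and 2.85% of juvenile cells. After each cell was thinned to 1000 UMIs the shares were 65.8% and 9.34% in the adult libraries, against 4.83% and 2.20% in the juvenile libraries. The same thinned shares in immune-gated cells were 14.9% and 0% in the adult libraries, against 0.232% and 0.093% in the juvenile ones (median depth before thinning 1773 and 2186 UMIs in adult and 2585.5 and 3490.5 UMIs in juvenile immune-gated cells). Mesenchyme thus lay above the immune level in adult replicate 1 and in both juvenile libraries. The 38 immune-gated cells of adult replicate 2 had too few UMIs of the gene for such a reading. The median cell with a UMI held 28 UMIs in adult replicate 1 and 3 UMIs in each of the other libraries, and the 10% of such cells with the most UMIs held 34.8% and 61.2% of the gene's UMIs in the adult libraries, against 52.8% and 32.6% in the juvenile ones.

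Dermal fibroblasts, gated by enzymes of phenylalanine and tyrosine breakdown such as *pah* and *hgd*, had the highest levels of *fgfbp2a*: 13417 and 2174 CPM in the adult libraries, against 646 and 445 CPM in the juvenile libraries. The adult values again lay above the juvenile values, but the difference of 3.63 ± 0.89 did not pass (adjusted p = 0.146, edgeR), in a gate where none of all 4461 genes tested was called. It passed with DESeq2 (adjusted p = 0.00035) and with no filter on low counts. Cells with a UMI made up 97.0% and 33.9% of adult dermal fibroblasts, against 24.2% and 17.3% of juvenile ones. In osteoblasts, *fgfbp2a* stood at 10460 and 736 CPM in the adult libraries, against 139 CPM in the 1 juvenile library with enough cells. In adult replicate 2 this level came from 10 of 104 cells, and 1 cell held 323 of the 450 UMIs, while 40 of 64 cells of adult replicate 1 and 7 of 109 of juvenile replicate 1 had a UMI. It was called higher in adult osteoblasts (5.40 ± 1.58, adjusted p = 0.0356, edgeR, 2 adult libraries against 1), 1 call among 8 family genes where 2.13% of all genes were called. That call was lost with DESeq2 (adjusted p = 0.481), with no filter on low counts (0.536), with a looser gate (0.237) and with all barcodes (0.195).

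The level of *fgfbp2a* in immune-gated cells differed between stages as well. Immune-gated cells had 192 and 18.6 CPM in the adult libraries, against 1.67 and 1.09 CPM in the juvenile ones. This was called too (6.43 ± 1.04, adjusted p = 0.0275, edgeR), the only call of 4 family genes tested there, where 0.425% of all genes were called, and it was lost without juvenile replicate 2 (5.91, adjusted p = 0.0567) and with a looser gate (adjusted p = 0.0564). Adult vascular smooth muscle had 1692 and 83.8 CPM, while both juvenile libraries had 0 UMIs. The pooled adult level of 886 CPM was at least 60.2-fold higher than the 14.7 CPM that 3 UMIs over the juvenile group would give. That fold covers counting error only and rests mainly on the vascular smooth muscle cells of adult replicate 1. In adult replicate 1, 58 of 141 of these cells had a UMI, with a median of 1, and the 10% of them with the most UMIs held 61.5% of the gene's UMIs. That stage difference did not pass (adjusted p = 0.185, edgeR). Adult epithelial cells had 844 and 13.95 CPM and adult neurons 390 and 0 CPM, against 10.1 and 0 CPM in juvenile epithelial cells and 6.78 and 0 CPM in juvenile neurons. In adult replicate 1, 1 neuron held 64 of the 95 UMIs and 1 epithelial cell 72 of the 146. Of the immune-gated cells of that library 76 had a UMI, with a median of 1, and 1 cell held 40 of the 149. The immune level of adult replicate 2 rests on 2 UMIs, fewer than the 3 taken as the floor, so no level of that library is read against it. The part that free RNA has in the stage difference was not tested.

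The gate comparisons, each gate against the mean of the others within libraries, called *fgfbp2a* higher in dermal fibroblasts (6.65 ± 0.34, adjusted p = 8.2e-21, edgeR), mesenchyme (4.57 ± 0.33, adjusted p = 1.3e-15) and osteoblasts (4.51 ± 0.38, adjusted p = 2.4e-13). It was called lower in cartilage (-3.79), endothelial cells (-3.45), radial glia (-2.84), neurons (-2.17) and immune cells (-2.01). The 3 higher calls held without any 1 library, and so did those in cartilage, radial glia and neurons. With no library block, however, every lower call was lost, and with a looser gate those in cartilage, endothelial cells and radial glia. The endothelial call was lost without adult replicate 1 (-2.58, adjusted p = 0.175) and the immune call without juvenile replicate 1 (-1.77, adjusted p = 0.0522).

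Cartilage was the tissue of *fgfbp2b*. Juvenile cartilage-gated cells had 2813 and 5537 CPM, and the 12 cells of adult replicate 1 had 780 CPM from 53 UMIs. A UMI was found in 33.3% of those 12 adult cells, against 88.0% and 93.2% of the juvenile cartilage cells. The 4 cartilage-gated cells of adult replicate 2 had none. In the gate comparison *fgfbp2b* was higher in cartilage by 9.12 ± 0.43 (adjusted p = 2.5e-20, edgeR), which held without any 1 library.

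The adult cartilage level of *fgfbp2b* was lower than the juvenile level (-3.18 ± 0.62, adjusted p = 8.6e-05, edgeR, 1 adult library against 2), in a comparison where 13 family genes were tested, 2 were called, and 1.11% of all genes were called. The median of all genes tested there was already -1.50, and adult replicate 1 had *col2a1a*, the main cartilage collagen, at 1899 CPM, against 9322 and 22347 CPM in the juvenile libraries. The part of these values in the difference was not tested. The call was lost with a looser gate (-4.31, adjusted p = 0.276) and with no filter on low counts (adjusted p = 0.859), and between the libraries depleted of YFP+ cells the difference was -1.85.

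Outside cartilage *fgfbp2b* was far lower. In mesenchyme it stood at 0.438 CPM (1 UMI) and 0 in the adult libraries, against 18.5 and 44.6 CPM in the juvenile libraries. Immune-gated cells had 0 UMIs in both adult libraries, against 24.6 and 7.0 CPM in the juvenile ones, so mesenchyme lay below the immune level in juvenile replicate 1 and above it in juvenile replicate 2. Dermal fibroblasts likewise had 7.67 CPM in juvenile replicate 1 and 73.5 CPM in juvenile replicate 2, and epithelial cells 242 and 22.2 CPM. The mesenchyme difference was called (-6.52 ± 0.93, adjusted p = 0.0170, edgeR) and kept its call in all 11 alternatives with a test, between -8.91 and -5.81; as a ratio of summed UMIs, adult over juvenile, it was 0.00751 (95% counting interval 0.00019 to 0.0426). The adult libraries also held 16 cartilage-gated cells in all, against 785 in the juvenile libraries, and the part of free cartilage RNA in the mesenchyme difference was not tested. Against the level of 3 UMIs over the adult group, the pooled juvenile level was at least 15.04-fold higher in dermal fibroblasts, 5.89-fold in epithelial cells, 4.55-fold in immune cells and 2.00-fold in neurons. These folds cover counting error only, and the juvenile libraries differed. The adult level so set was 2.60 CPM in dermal fibroblasts, against 7.67 CPM in juvenile replicate 1. In epithelial cells it was 7.73 CPM, against 22.2 CPM in juvenile replicate 2. The stage tests in immune cells and neurons did not pass (adjusted p = 0.146 and 0.246, edgeR). A few cells carried much of these juvenile levels. In mesenchyme of juvenile replicate 2, 32 of 666 cells had a UMI, the median of them held 1, and the 10% of them with the most UMIs held 62.2% of the gene's 82, with 23 in 1 cell. In dermal fibroblasts of the same library 8 of 179 cells had a UMI and 1 of them held 31 of 70. In juvenile replicate 1, 1 immune-gated cell held 42 of 103 UMIs and 1 epithelial cell 44 of 48.

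The other binding protein genes were far lower. For *fgfbp1b*, whose mammalian relative is an epithelial gene, epithelial cells had 121 and 65.1 CPM in the adult libraries, against 25.2 and 109 CPM in the juvenile libraries, with the stages overlapping. Calls put it higher in the epithelial gate (5.84 ± 0.57, adjusted p = 2e-11, edgeR) and in radial glia (3.73 ± 0.73, adjusted p = 0.00013), and both calls held without any 1 library. The radial glia call was lost with DESeq2 (adjusted p = 0.246). For *fgfbp1a*, mesenchyme had 7.89 and 9.27 CPM in the adult libraries, against 5 and 8.69 CPM in the juvenile libraries. Osteoblasts had 34.5 and 11.4 CPM of it in the adult libraries, against 0 in juvenile replicate 1. That stage difference did not pass (adjusted p = 0.0683, edgeR). The pooled adult level was at least 3.89-fold above that of 3 juvenile UMIs. Radial glia had 221 CPM (23 UMIs) in adult replicate 1 and 14.6 CPM in juvenile replicate 1, and 0 in the other 2 libraries. *fgfbp1a* was called higher in radial glia (3.60 ± 0.71), osteoblasts (2.83 ± 0.83), dermal fibroblasts (2.40 ± 0.69) and mesenchyme (2.35 ± 0.60), of which the osteoblast call was lost without adult replicate 2 (adjusted p = 0.278) and the dermal call without juvenile replicate 2 (0.60, adjusted p = 0.85). With a looser gate each of these calls was lost, and with DESeq2 those in osteoblasts, dermal fibroblasts and mesenchyme.

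**Figure D2:**
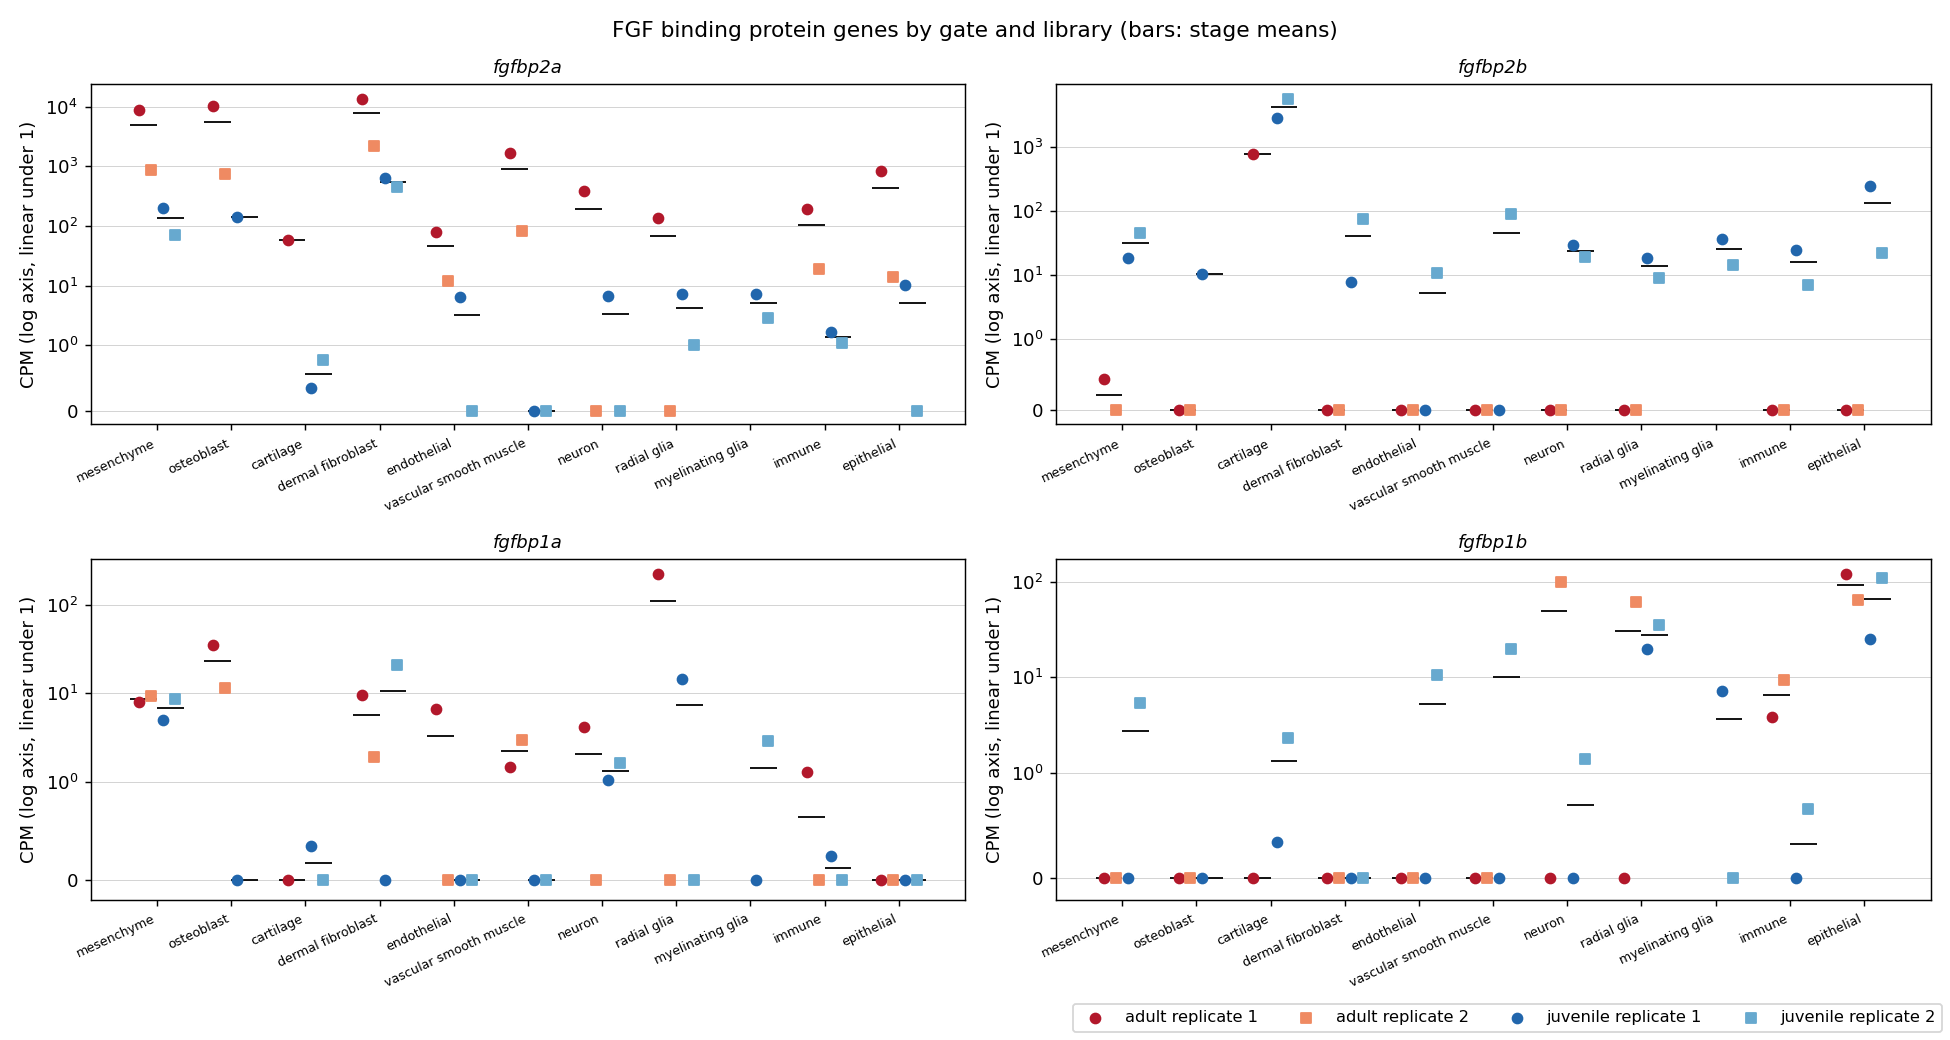
Level of the 4 FGF binding protein genes in CPM (vertical axis, log scale, linear under 1) in each gate, with 1 point per library of at least 10 cells and bars for stage means. *fgfbp2a* reaches 13417 CPM in dermal fibroblasts of adult replicate 1 and *fgfbp2b* reaches 5537 CPM in cartilage of juvenile replicate 2, while *fgfbp1a* and *fgfbp1b* stay at or below 221 CPM.

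Most calls on the receptor genes lay between gates. Of the tyrosine kinase receptors, *fgfr3* (LL0000010320) was highest in bone and cartilage, *fgfr2* in radial glia and mesenchyme, *fgfr1b* in juvenile cartilage, and *fgfr4* in osteoblasts. Only *fgfr1b* in cartilage was called between stages.

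Osteoblasts had *fgfr3* at 345 and 208 CPM in the adult libraries, against 304 CPM in juvenile replicate 1, and the 9 osteoblast-gated cells of juvenile replicate 2 had 4 UMIs (134 CPM). The stages overlapped. Juvenile cartilage had 227 and 444 CPM and the 12 adult cells 177 CPM (12 UMIs). Mesenchyme lay well below, at 54.8 and 65.3 CPM in the adult libraries, against 25.0 and 45.6 CPM in the juvenile libraries, and immune cells had 0 to 3.59 CPM.

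An *fgfr3* UMI was found in most osteoblasts, in 65.6% and 53.8% of adult cells, against 60.6% of the cells of juvenile replicate 1. The same shares in immune cells were 0.355% and 0% in the adult libraries, against 0.912% and 0.444% in the juvenile libraries. With cells thinned to 1000 UMIs, 36.8% and 15.5% of adult osteoblasts had a UMI, against 19.2% of those of juvenile replicate 1, whose median depths before thinning were 3868.5 and 5837.5 UMIs in the adult libraries and 4219 in the juvenile one.

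Against the mean of the other gates, *fgfr3* was higher in osteoblasts (5.10 ± 0.41, adjusted p = 4.2e-14, edgeR), cartilage (4.77 ± 0.39, adjusted p = 7.8e-14), mesenchyme (2.07 ± 0.45, adjusted p = 0.00041) and radial glia (1.94 ± 0.47, adjusted p = 0.0019). The radial glia call was lost without juvenile replicate 1 (1.70, adjusted p = 0.0766, edgeR). With a looser gate both the radial glia call and the mesenchyme call (adjusted p = 0.056) were lost. Set directly against mesenchyme, it was 2.75 ± 0.56 higher in osteoblasts (adjusted p = 0.00075), which held without any 1 library, and 2.45 ± 0.60 higher in cartilage (adjusted p = 0.0035), which was lost without juvenile replicate 1 (1.76, adjusted p = 0.298) or 2 (2.04, adjusted p = 0.089). No difference was called between cartilage and osteoblasts. Myelinating glia of the juvenile libraries had 0 *fgfr3* UMIs.

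*fgfr2*, which in mammals is spliced to forms for epithelium and mesenchyme that these 3′ counts cannot tell apart, was broad. Mesenchyme had 56.1 and 71.5 CPM in the adult libraries, against 35.0 and 80.4 CPM in the juvenile libraries. Radial glia had 67.4 CPM in adult replicate 1, against 104 and 150 CPM in the juvenile libraries. *fgfr2* stood at 30.6 CPM from 1 UMI in adult replicate 2, whose radial glia lacked *gfap* and *slc1a3b*. It was higher in mesenchyme (2.40 ± 0.33, adjusted p = 1.0e-07, edgeR), radial glia (2.35 ± 0.37, adjusted p = 2.1e-06) and dermal fibroblasts (1.54 ± 0.38, adjusted p = 0.0024), and these calls held without any 1 library. The dermal call was lost with a looser gate (adjusted p = 0.155, edgeR). Vascular smooth muscle had 32.5 and 39.7 CPM in the adult libraries, against 38.5 and 30.0 CPM in the juvenile libraries, a narrow range on 3 to 27 UMIs.

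*fgfr1b* was the one receptor with a call between stages. Juvenile cartilage had 97.8 and 99.3 CPM (543 UMIs together), and neither the 12 nor the 4 adult cells had a UMI. The juvenile level was 98.5 CPM pooled, so adult cartilage was at least 2.82-fold lower when the adult group is set to 3 UMIs (35.0 CPM). The bound was 2.23-fold without adult replicate 2, whose 4 cells lacked *matn1*. The median of all genes tested between stages in cartilage was already -1.50 on the log2 scale, a shift about as large as these bounds. The part of that shift in the *fgfr1b* difference was not tested. The test called it (adjusted p = 0.0244, edgeR) but gives no usable fold against 0 UMIs, and the call was lost with library totals, with no filter, with a looser gate and with all barcodes. DESeq2 gave no adjusted p for *fgfr1b* between stages in cartilage, so it neither called nor rejected this difference. In other gates *fgfr1b* was spread widely: mesenchyme had 63.5 and 22.5 CPM in the adult libraries, against 28.5 and 47.3 CPM in the juvenile libraries. It was called higher in cartilage (3.67 ± 0.39), mesenchyme (2.10 ± 0.38), dermal fibroblasts (1.65 ± 0.42) and radial glia (1.38 ± 0.47). The radial glia call was lost without adult replicate 1 (0.99, adjusted p = 0.114, edgeR) or juvenile replicate 1 (1.30, adjusted p = 0.231). It held in 5 of 12 alternatives and was also lost with DESeq2, no filter, no library block, a stricter gate and all barcodes. The symbol *fgfr1bl* names a further copy with 6 UMIs in kept cells; reads that match 2 genes equally are left out by default in Cell Ranger, so the split between such copies is uncertain.

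*fgfr4* was highest in osteoblasts, with 69.1 and 40.9 CPM in the adult libraries, against 25.5 CPM in juvenile replicate 1. Mesenchyme had 32.0 and 12.8 CPM of *fgfr4* in the adult libraries, against 16.9 and 14.1 CPM in the juvenile libraries. It was higher in osteoblasts than in the other gates by 4.76 ± 0.47 (adjusted p = 8.3e-11, edgeR) and higher in mesenchyme by 3.18 ± 0.41 (adjusted p = 2.4e-08), and both held without any 1 library. Its difference between osteoblasts and mesenchyme (1.44 ± 0.46, adjusted p = 0.0492) was lost without adult replicate 2, juvenile replicate 1 or juvenile replicate 2 (adjusted p 0.216 to 0.378). *fgfr4* was also called higher in cartilage (2.35 ± 0.53), lost without juvenile replicate 1 or 2 (adjusted p = 0.0973 and 0.187), and in radial glia (2.12 ± 0.55), lost without juvenile replicate 2 (adjusted p = 0.209).

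*fgfr1a* had 21.5 and 15.4 CPM in adult mesenchyme, against 23.1 and 39.1 CPM in juvenile mesenchyme, and 41.4 and 14.7 CPM in adult osteoblasts, against 34.0 CPM in those of juvenile replicate 1. Calls put it higher in osteoblasts (2.09 ± 0.45), mesenchyme (1.55 ± 0.33) and dermal fibroblasts (1.33 ± 0.38), where the osteoblast and dermal calls were lost without juvenile replicate 1 (adjusted p = 0.0768 and 0.079). It was called lower in neurons (-2.04) and immune cells (-3.57), both lost without juvenile replicate 2. The same gates had *fgfr1b* (-2.81 in neurons, -2.79 in immune cells), *fgfr2* (-1.49 and -2.58) and *fgf10a* (-2.61 and -2.85) lower, and each of these calls was lost without at least 1 library. Myelinating glia, tested in the juvenile libraries alone, had *fgfr3* and *fgfr2* (-2.97 ± 1.01) lower, both lost without juvenile replicate 2. Both were also lost with a stricter gate and with a looser gate, and the *fgfr2* call held in 6 of 12 alternatives.

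The kinase-free receptors bind FGFs without passing on a kinase signal. Both were called higher in mesenchyme, *fgfrl1a* also in 3 further gates and *fgfrl1b* also in cartilage. *fgfrl1a* stood at 10.1 and 33.5 CPM in adult mesenchyme, against 32.3 and 43.5 CPM in juvenile mesenchyme, and at 1.70 to 4.91 CPM in the 3 osteoblast sums tested. It was higher in mesenchyme than in the other gates by 2.44 ± 0.32 (adjusted p = 2.7e-08, edgeR) and lower in osteoblasts than in mesenchyme by 2.95 ± 0.75 (adjusted p = 0.0074), a call lost without adult replicate 2 or juvenile replicate 1 (adjusted p 0.102 and 0.353). It was also higher in vascular smooth muscle (2.00 ± 0.46), dermal fibroblasts (1.78 ± 0.37) and radial glia (1.74 ± 0.42), the dermal call lost without juvenile replicate 2 (adjusted p = 0.112) and the glial call without juvenile replicate 1 (adjusted p = 0.199), and lower in neurons (-2.58) and immune cells (-3.07). *fgfrl1b* stood at 29.4 CPM from 2 UMIs in adult replicate 1 cartilage, against 32.0 and 66.7 CPM in juvenile cartilage, and at 3.51 and 8.83 CPM in adult mesenchyme, against 10.0 and 15.2 CPM in juvenile mesenchyme. It was higher in cartilage than in the other gates by 4.73 ± 0.40 (adjusted p = 9.7e-14), which held without any 1 library, and in mesenchyme by 2.04 ± 0.41, and lower in radial glia (-3.35) and immune cells (-4.44), both lost without at least 1 library. In dermal fibroblasts both adult libraries had 0 UMIs of *fgfrl1b*, at least 3.66-fold below the pooled juvenile level of 9.52 CPM. That fold covers counting error only and rests on juvenile replicate 2. Juvenile replicate 1 had 2.88 CPM from 3 UMIs, close to the 2.60 CPM that 3 UMIs over the adult group would give.

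**Figure D3:**
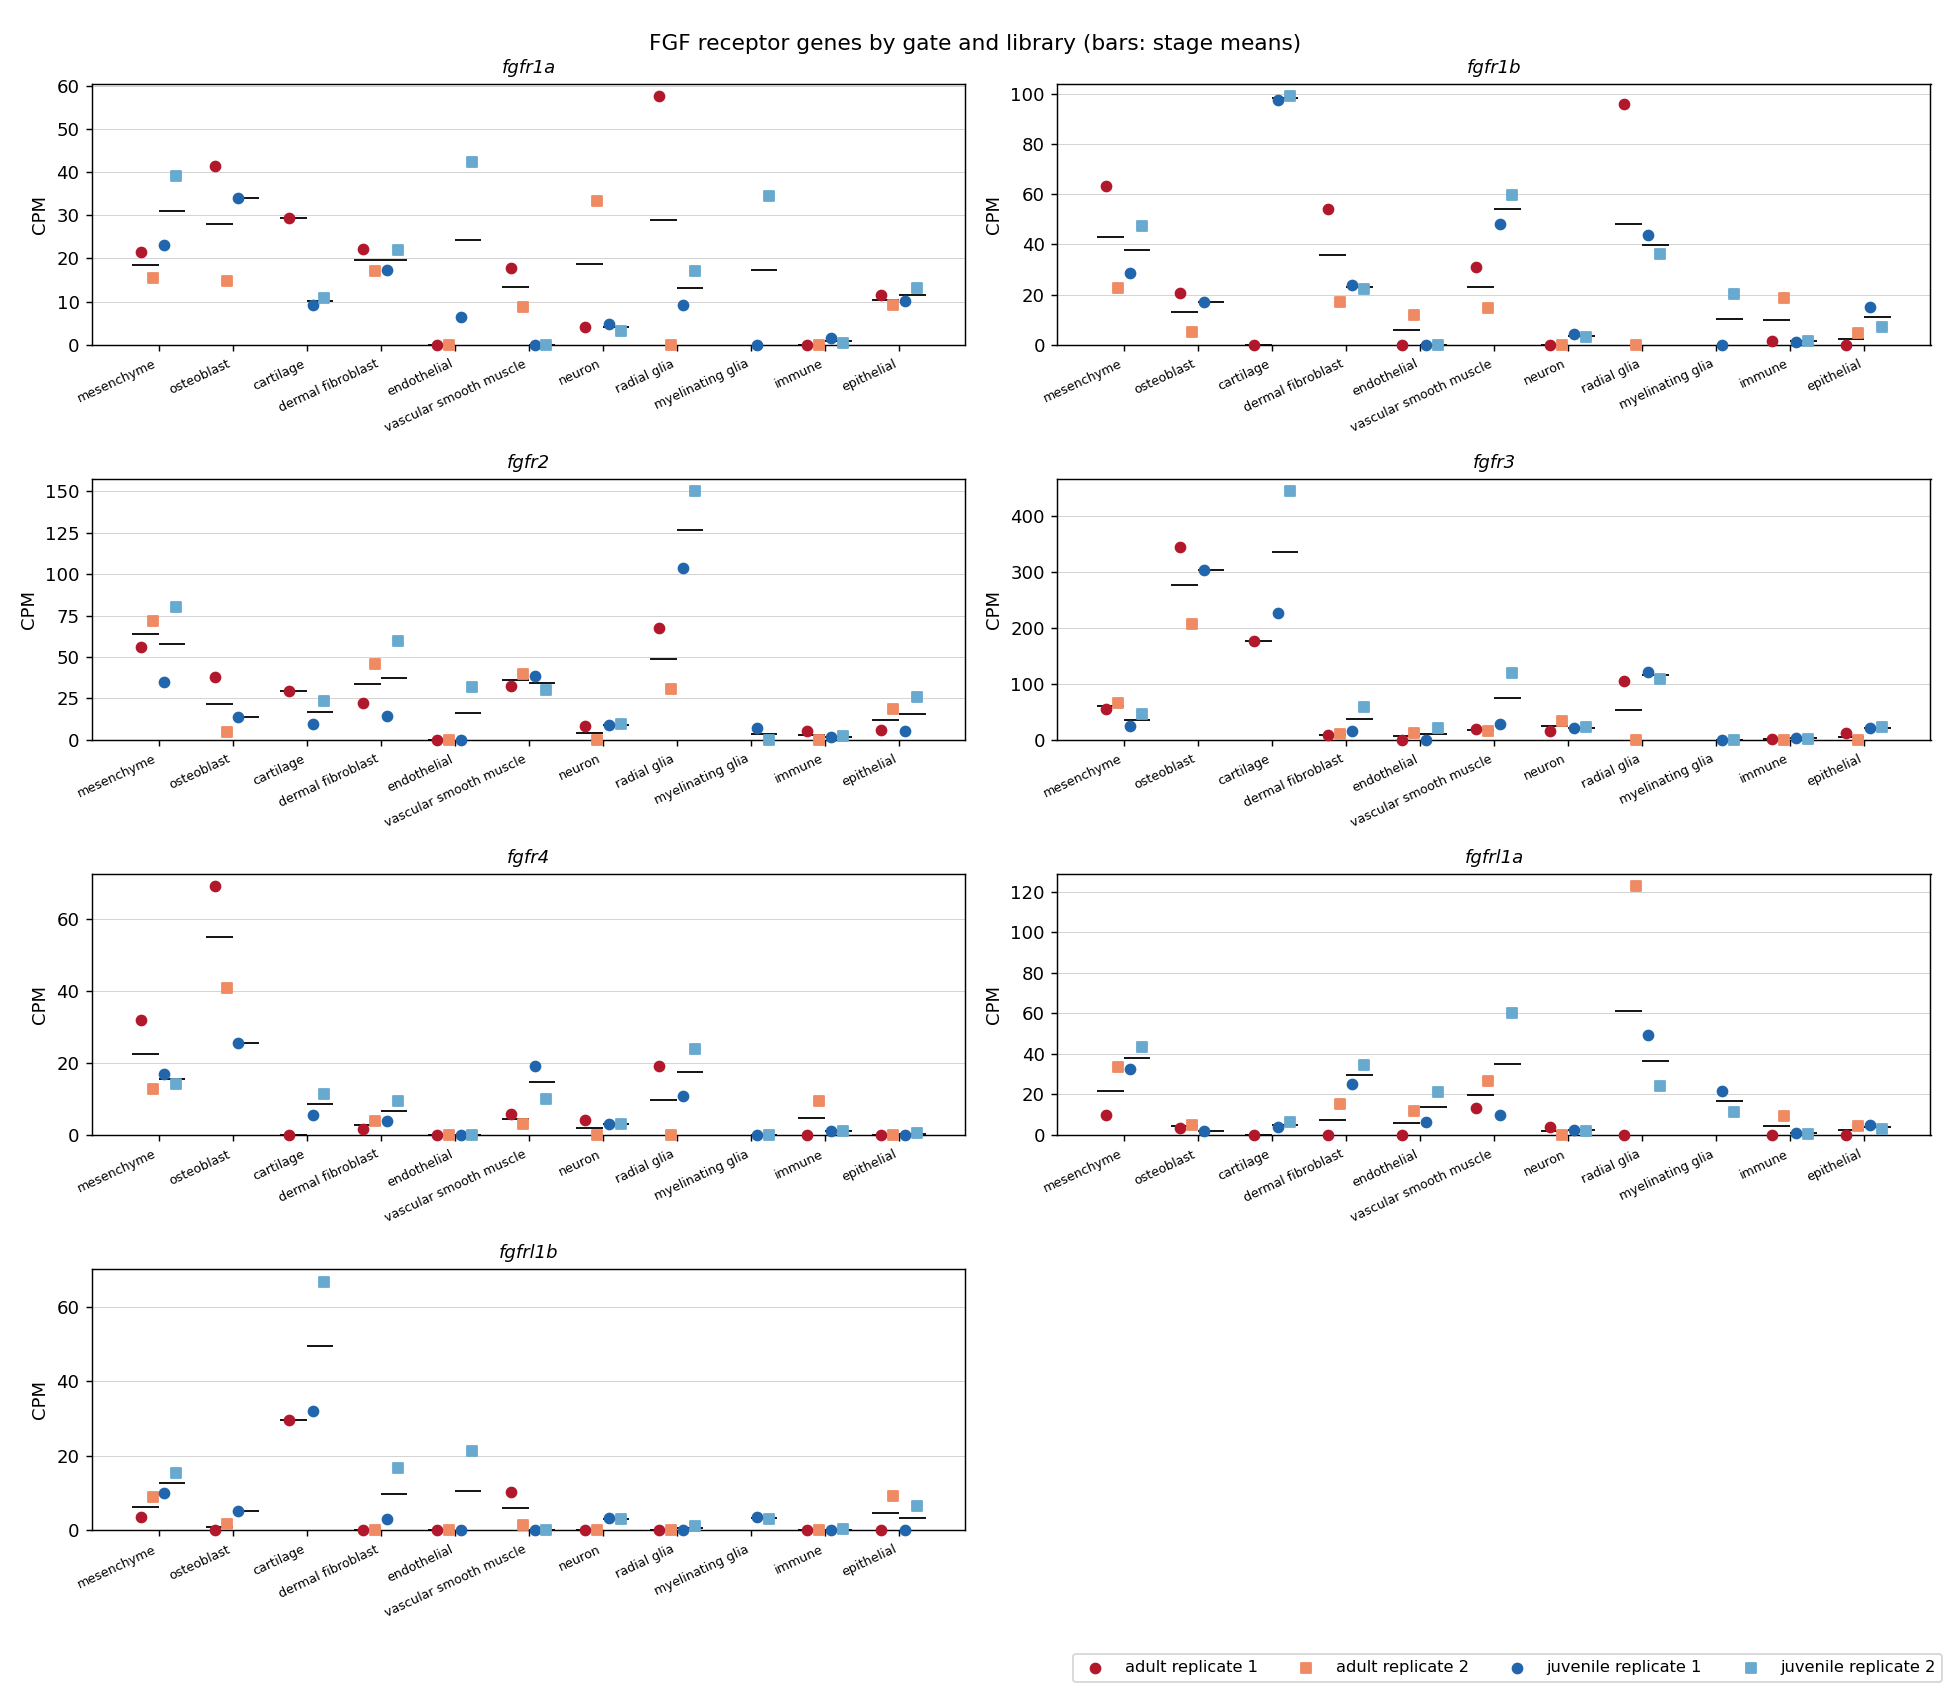
Level of 5 FGF receptor genes and 2 kinase-free receptor genes in CPM (vertical axis from 0) in each gate, with 1 point per library of at least 10 cells and bars for stage means. *fgfr3* is highest in osteoblasts (208 to 345 CPM) and juvenile cartilage (227 and 444 CPM), and *fgfr1b* shows 97.8 and 99.3 CPM in juvenile cartilage against 0 in the adult library.

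The secreted ligands were sparse. *fgf7* and *fgf10a* are relatives of mammalian ligands made by mesenchyme that act on epithelium. *fgf7* (LL0000010307) stood at 2.63 and 5.30 CPM in adult mesenchyme (6 and 12 UMIs), against 67.3 and 15.8 CPM in juvenile mesenchyme (175 and 29 UMIs). In dermal fibroblasts it stood at 3.18 and 1.90 CPM in the adult libraries, against 40.3 and 11.6 CPM in the juvenile libraries. The adult values lay below the juvenile values in both gates, and all cartilage, endothelial and epithelial sums were 0.

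The difference of *fgf7* between stages did not pass. In mesenchyme it was -3.07 ± 0.83 (adjusted p = 0.108, edgeR), with a range of -3.89 to -1.50 over the alternatives. It passed with DESeq2 (adjusted p = 0.0203) and with no filter. With a library left out, it was weakest without juvenile replicate 1 (-1.50). In dermal fibroblasts, where *fgf7* did not pass the filter on low counts, the ratio of summed UMIs, adult over juvenile, was 0.0978 (95% counting interval 0.0196 to 0.302), which covers counting error only. Between gates, *fgf7* was higher in mesenchyme (5.15 ± 0.36, adjusted p = 1.0e-14, edgeR), dermal fibroblasts (4.74 ± 0.43, adjusted p = 9.4e-12) and vascular smooth muscle (3.62 ± 0.69, adjusted p = 0.0002), all of which held without any 1 library. The vascular smooth muscle call was lost with DESeq2 and with no library block.

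*fgf10a* followed the same gates, at 6.13 and 12.4 CPM in adult mesenchyme, against 31.9 and 36.9 CPM in juvenile mesenchyme, and at 11.1 and 5.70 CPM in adult dermal fibroblasts, against 22.0 and 21.0 CPM in juvenile ones. Again the stages did not overlap, and the mesenchyme difference was -1.50 and did not pass (adjusted p = 0.267, edgeR; 0.0079 to 0.714 over the alternatives). It was called higher in mesenchyme (2.80 ± 0.39, adjusted p = 9.8e-08) and dermal fibroblasts (2.40 ± 0.46, adjusted p = 7.8e-05), and in cartilage (1.88 ± 0.49, adjusted p = 0.0052), where the call was lost without juvenile replicate 2 (1.85, adjusted p = 0.117). *fgf18a*, whose mouse counterpart acts in bone and cartilage growth, stood at 2.19 and 3.97 CPM in adult mesenchyme, against 10.8 and 7.61 CPM in juvenile mesenchyme, and was at 0 in all osteoblast sums. *fgf18b* stayed at 0 to 3.80 CPM in mesenchyme.

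Of the other ligands, *fgf22* and *fgf24* were tested between gates, and *fgf20a*, *fgf6a* and *fgf1a* were too low to be. *fgf22*, whose mouse counterpart organises synapses, had 0 UMIs in the radial glia of both adult libraries, against 38.2 and 51.1 CPM in the juvenile ones (21 and 51 UMIs). Adult cells were at least 2.12-fold lower against the level of 3 UMIs. The bound was 1.61-fold without adult replicate 2, whose radial glia lacked *gfap* and *slc1a3b*. *fgf22* was called higher in radial glia than in the other gates (4.25 ± 0.66, adjusted p = 2.9e-06, edgeR), a call lost with DESeq2 (adjusted p = 0.0573). *fgf24*, known from zebrafish pectoral fin outgrowth, had 0 and 13.95 CPM in adult epithelial cells, against 0 and 17.4 CPM in juvenile ones. Both values of 0 came from the libraries depleted of YFP+ cells, and the part of that sort in them was not tested. *fgf24* was called higher in the epithelial gate (3.67 ± 0.73, edgeR), lost without juvenile replicate 2 (2.21, adjusted p = 0.236). It was also called in radial glia (3.54 ± 0.80), where the 4 libraries had 2, 2, 7 and 4 UMIs. DESeq2 called *fgf24* in neither gate. In edgeR *fgf24* was also called in neurons (2.23 ± 0.70), lost without adult replicate 2 (1.77, adjusted p = 0.0566) and with DESeq2. Osteoblasts of juvenile replicate 1 had 10.2 CPM of it (6 UMIs), not called there (adjusted p = 0.0906, edgeR). In neurons, *fgf20a*, a gene of fin regeneration, had 4.11 CPM from 1 UMI and 0 in the adult libraries, against 13.6 and 12.7 CPM in the juvenile libraries, *fgf6a*, which had UMIs in all 11 gates, had 12.3 and 33.4 CPM (3 UMIs and 1 UMI), against 3.65 and 9.50 CPM, and *fgf1a* had 0 UMIs in the adult libraries, against 3.65 and 9.03 CPM.

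The rest of the ligand genes were near the limit of detection. *fgf3* had 20.0 CPM in radial glia of juvenile replicate 2 and 3.64 CPM in juvenile replicate 1, with 0 in the adult ones. *fgf20b* had 10.9 and 5.74 CPM in the myelinating glia of the juvenile libraries, from 3 and 2 UMIs. *fgf1b* had 57.8 CPM in radial glia of adult replicate 1 from 6 UMIs. *fgf10b* had 1.31 and 1.77 CPM in adult mesenchyme, against 3.46 and 10.3 CPM in juvenile mesenchyme, but only 31.9% of its 191 UMIs in kept cells lay in gated cells.

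Among the 11 genes with 1 to 19 UMIs in gated cells, *fgf2*, *fgf4*, *fgf8a*, *fgf8b*, *fgf16* and *fgf17* had 20 to 30 UMIs over all kept cells and *fgf5*, *fgf9* and *fgfr1bl* had 1 to 8. There, 2 hormone-like ligands were confined to 1 gate among the gated cells. All 8 UMIs of *fgf23*, the phosphate-regulating hormone made by bone in mammals, lay in osteoblasts, 1 in adult replicate 1 and 7 in juvenile replicate 1. All 8 UMIs of *fgf21*, a metabolic hormone in mammals, lay in adult mesenchyme, 6 and 2 UMIs. Pooled, they stood at least 2.60-fold above the level of 3 juvenile UMIs. Counts of 8 UMIs do not support a statement on other gates.

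**Figure D4:**
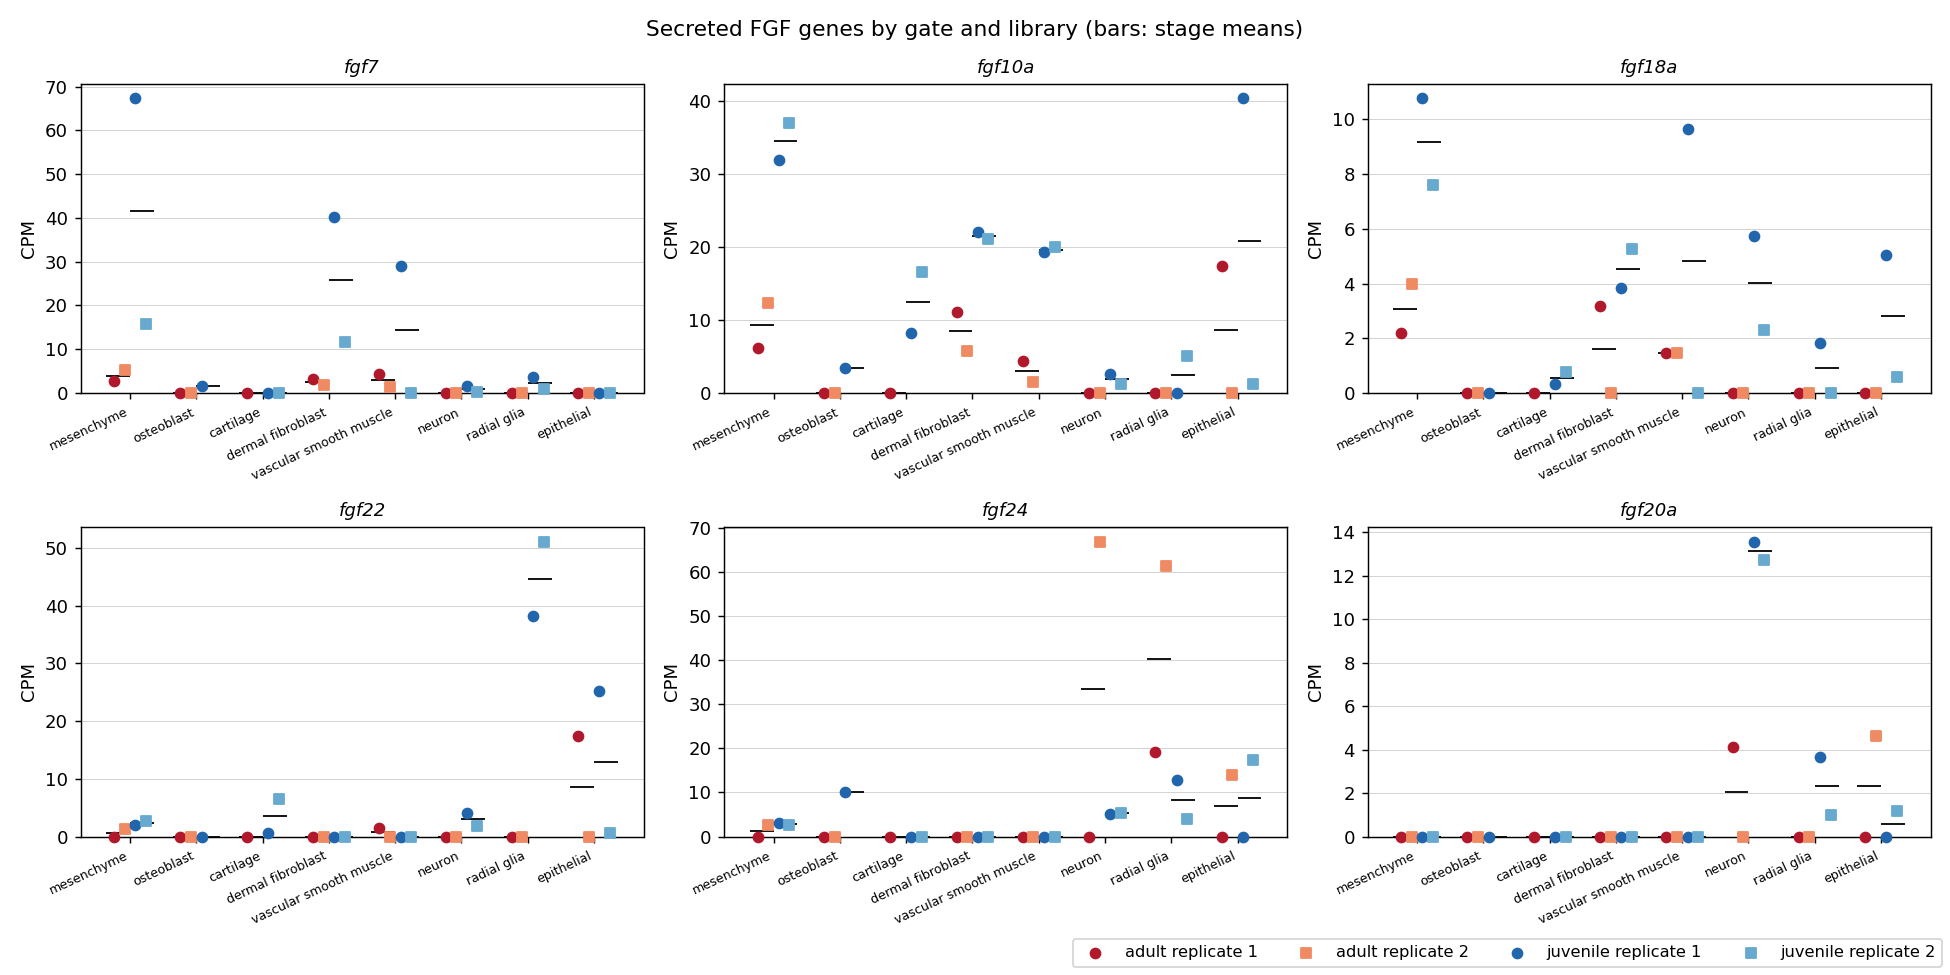
Level of 6 secreted FGF genes in CPM (vertical axis from 0) in 8 gates, with 1 point per library of at least 10 cells and bars for stage means. *fgf7* and *fgf10a* are higher in juvenile than in adult mesenchyme and dermal fibroblasts, and *fgf22* reaches 51.1 CPM in juvenile radial glia. The high *fgf24* points of adult replicate 2 in neurons and radial glia (66.8 and 61.3 CPM) rest on 2 UMIs each, below the 3 UMIs used as the floor.

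The intracellular FGFs are not secreted and bind voltage-gated sodium channels in neurons. Of the 7 genes, 5 were tested between gates, and all 5 were called higher in neurons, where 32.3% of all genes were called higher. All 7 had their highest pooled level in neurons, so the filter on low counts and the calls draw on the same counts. The count of 5 is therefore not independent of the filter. *fgf13a* stood at 65.7 and 66.8 CPM in adult neurons (16 UMIs and 2 UMIs), against 52.6 and 62.1 CPM in juvenile neurons, and at 0 to 2.15 CPM in immune cells. *fgf14* stood at 20.5 and 100 CPM in adult neurons (5 and 3 UMIs), against 65.7 and 73.0 CPM in juvenile neurons. *fgf12b* stood at 16.4 and 33.4 CPM in adult neurons, against 29.2 and 75.7 CPM in juvenile neurons. These levels overlapped or lay close between stages, on few adult UMIs.

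Against the other gates, neurons were higher for *fgf13a* (5.23 ± 0.39, adjusted p = 7.3e-15, edgeR), *fgf13b* (4.58 ± 0.48, adjusted p = 7.8e-11), *fgf14* (4.36 ± 0.39, adjusted p = 2.0e-13), *fgf12b* (3.53 ± 0.37, adjusted p = 3.9e-11) and *fgf12a* (3.37 ± 0.46, adjusted p = 3.2e-08), and all 5 calls held without any 1 library. *fgf13b* stood at 24.6 and 33.4 CPM in adult neurons, against 31.3 and 31.5 CPM in juvenile neurons, and *fgf12a* at 16.4 and 33.4 CPM, against 17.2 and 45.2 CPM. *fgf11b* was lower, at 0 in adult neurons and 4.69 and 7.18 CPM in juvenile neurons, and *fgf11a* lower still, at 0.521 to 4.11 CPM in the 3 libraries with a UMI; in adult replicate 1 it had 1 UMI each in radial glia (9.63 CPM) and in neurons. Neither was tested between gates. Radial glia had less of 4 of these genes than neurons: *fgf13b* by -4.87, *fgf14* by -3.54, *fgf13a* by -3.45 and *fgf12b* by -2.95 on the log2 scale, of which *fgf12b* was lost without juvenile replicate 2 (adjusted p = 0.0823). *fgf12a* was also called in the epithelial gate (2.23 ± 0.58), lost without juvenile replicate 2 (2.46, adjusted p = 0.203).

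**Figure D5:**
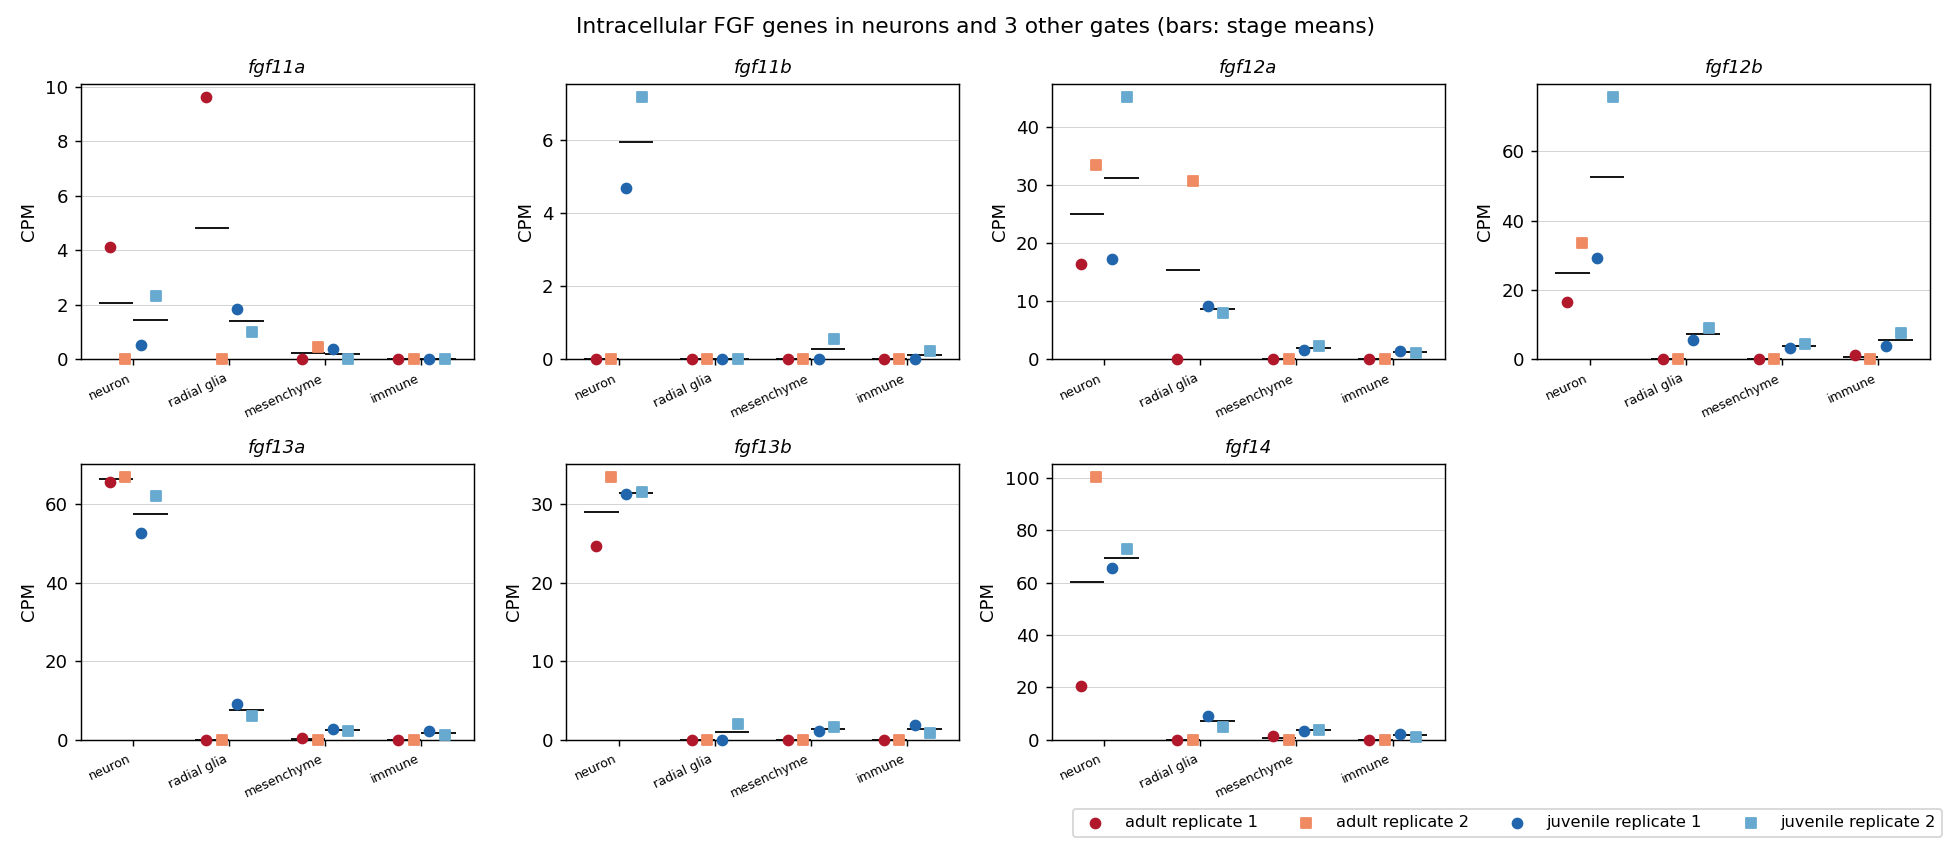
Level of the 7 intracellular FGF genes in CPM (vertical axis from 0) in neurons, radial glia, mesenchyme and immune cells, with 1 point per library of at least 10 cells and bars for stage means. *fgf13a* stands at 52.6 to 66.8 CPM in neurons and at 0 to 2.15 CPM in immune cells, while *fgf11a* and *fgf11b* stay at or below 9.63 CPM.

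The genes matched by name only behaved otherwise. *fgfr1op* was at 28.7 and 0 CPM in adult neurons, against 34.4 and 39.8 CPM in juvenile neurons, and at 7.72 and 0 CPM in adult immune cells, against 11.7 and 12.2 CPM in juvenile immune cells. A call put it higher in neurons (0.97 ± 0.34, adjusted p = 0.0161, edgeR), lost without adult replicate 1, juvenile replicate 1 or juvenile replicate 2 (adjusted p 0.102 to 0.221). *fgfr1op2* had UMIs in all 11 gates, at 13.1 and 37.5 CPM in adult mesenchyme, against 42.3 and 32.6 CPM in juvenile mesenchyme, and was called in cartilage (1.43 ± 0.34), lost without juvenile replicate 1 (1.09, adjusted p = 0.513).

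Counted over the family, 22 genes passed the filter on low counts in the model of all gates, and each was called in at least 1 gate, 71 calls in 242 tests. The share of all 13161 genes called in at least 1 gate is not given here, so these totals are not read as a trait of the family. In mesenchyme 11 of 22 were higher and none lower, where 16.4% of all 13161 genes were called higher. Beside each count stands the share of all genes called in the same direction in that gate. Radial glia had 9 higher (12.8%) and 2 lower (4.8%), dermal fibroblasts 8 higher (12%), cartilage 7 higher (11.3%) and 1 lower (2.75%), and osteoblasts 5 higher (6.28%). Neurons had 7 higher (32.3%), a share of the 22 genes close to that of all genes, and 6 lower (12.2%). Epithelial cells had 3 higher (12.1%), vascular smooth muscle 2 higher (7.49%), endothelial cells 1 lower (2.09%), myelinating glia 2 lower (2.52%) and immune cells 7 lower (13%). The median log2 difference of the 22 genes was 1.52 in mesenchyme, against 0.23 over all genes tested there, and -1.10 in immune cells, against 0.05 over all genes.

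Neighbouring gates were set against each other in 132 tests with 34 calls. Osteoblasts had 2 genes higher (*fgfr3*, *fgfr4*) and 3 lower (*fgf7* by -5.04, *fgf10a* by -3.72, *fgfrl1a*) than mesenchyme, where 1.68% of all genes were called higher and 4.9% lower, and of these *fgfr3* and *fgf7* held without any 1 library. The *fgf7* call was lost with no library block and with a looser gate. Cartilage had 3 higher (*fgfbp2b* by 8.41, *fgfr3*, *fgfrl1b* by 2.45) and 3 lower (*fgf7* by -8.34, *fgfbp2a* by -7.60, *fgfrl1a* by -2.18) than mesenchyme (3.22% of all genes higher, 7.8% lower), and the *fgfbp2b*, *fgfbp2a* and *fgf7* calls held without any 1 library. With no library block the *fgfbp2a* call was lost (adjusted p = 0.0502, edgeR). Since *fgf7* had 0 UMIs in all cartilage sums, its fitted value is no bound. Cartilage against osteoblasts had *fgfbp2b* (9.80), *fgfrl1b* (3.76) and *fgfr1b* (2.81) higher and *fgfbp2a* (-7.55) and *fgfr4* (-2.18) lower (2.57% of all genes higher, 2.5% lower). The *fgfbp2b* and *fgfbp2a* calls held without any 1 library, and the *fgfr4* call was lost without each of the 4. With no library block the *fgfbp2a* call was lost here too (adjusted p = 0.0672, edgeR).

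Between dermal fibroblasts and mesenchyme no family gene was called (0 of 22 in edgeR, 5 at an unadjusted p below 0.05, 0 in DESeq2), where 1.01% of all genes were called. Vascular smooth muscle had 5 genes higher than endothelial cells (*fgfr1b* by 4.27, *fgfbp2a* by 3.84, *fgfr2* by 3.01, *fgfr3* by 2.87, and *fgf7*, where 4.41% of all genes were called higher), and each of these 5 was lost without at least 1 library. Endothelial cells had 0 UMIs of *fgf7*, so no fold is given for it, and 1 UMI of *fgfr1b* and 3 each of *fgfr2* and *fgfr3* in all. With a looser gate the *fgfbp2a* difference was -0.036 (adjusted p = 0.997, edgeR). The *fgfr3* call held in 4 of 12 alternatives, that on *fgfr2* in 6 of 12 and that on *fgf7* in 5 of 11. Radial glia had 9 genes higher than neurons (10% of all genes): *fgfbp1b* (4.1), *fgfrl1a* (3.93), *fgfbp1a* (3.83), *fgfr1b* (3.81), *fgf22* (3.73), *fgfr2* (3.50), *fgfr4* (2.42), *fgfr3* (2.33) and *fgfr1a* (2.05). The 4 intracellular FGF genes already given were lower (14% of all genes). Of the higher calls, those on *fgfrl1a*, *fgfbp1a*, *fgfr1b* and *fgfr2* held without any 1 library. The *fgfbp1a* call was lost with DESeq2, with a stricter gate and with a looser gate.

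Between stages 71 tests of 24 genes gave 6 calls on 3 genes, *fgfbp2a*, *fgfbp2b* and *fgfr1b*, each given with its values. No family gene was called in neurons (11 tested, background 1.24%), radial glia (6 tested, 0.338%), dermal fibroblasts (8 tested), vascular smooth muscle (5 tested) or epithelial cells (1 tested), where the background was 0% for the last 3, and none passed the filter in endothelial cells. At an unadjusted p below 0.05 in edgeR there were 1, 1, 3, 2 and 0 in these gates, and DESeq2 called 1 of them, *fgfbp2a* in dermal fibroblasts. Whether the stage difference itself differed between gates was tested for osteoblasts, cartilage and dermal fibroblasts, each against mesenchyme: 66 tests gave 0 calls in edgeR, with 0, 2 and 4 at an unadjusted p below 0.05, where 0%, 0.00895% and 0% of all genes were called. DESeq2 called 1, *fgfr3* in cartilage against mesenchyme (-3.54 ± 1.15, adjusted p = 0.039).

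Of 32 other genes of the pathway, listed as cofactors, adaptors, feedback and target genes and heparan sulfate enzymes and carriers, 30 were in the gene list. None was called between stages in any gate, over 140 tests with 19 at an unadjusted p below 0.05 in edgeR. Between gates 27 were tested, and the share of all genes called in the same direction stands in brackets after each count. In mesenchyme 11 were higher (16.4%) and none lower, with *sulf1*, which trims sulfate from heparan sulfate, by 2.50 ± 0.37, and *flrt2*, a membrane protein, by 1.99 ± 0.36. In cartilage 6 were higher (11.3%) and 1 lower (2.75%), led by the heparan sulfate carriers *sdc2* (3.45 ± 0.30) and *hspg2* (2.88 ± 0.33) and including the target gene *etv4* (2.38 ± 0.44). *sdc2* stood at 383 CPM in cartilage of adult replicate 1, against 303 and 548 CPM in the juvenile libraries, and *hspg2* at 44.2 CPM (3 UMIs), against 64.4 and 130 CPM.

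Osteoblasts had 3 higher (6.28%), *gpc1b* (2.62 ± 0.44), *dusp2* (1.98 ± 0.35) and *sdc2* (1.77 ± 0.35), and 1 lower (0.874%), *sulf2b* (-2.39 ± 0.66). *dusp2*, a phosphatase of MAP kinases, stood at 442 and 543 CPM in adult osteoblasts, against 440 CPM in those of juvenile replicate 1, and at 362 and 316 CPM in adult immune cells, against 704 and 821 CPM in juvenile immune cells. In endothelial cells 5 were higher (6.98%) and 1 lower (2.09%), the higher ones with the feedback inhibitors *spry4* (2.20 ± 0.29) and *dusp6* (1.56 ± 0.37). *spry4* stood at 362 and 418 CPM in the adult libraries, against 135 and 540 CPM in the juvenile libraries, while each kinase receptor gene had 0 to 4 UMIs per library there. In radial glia 6 were higher (12.8%), with *sulf2a* by 4.64 ± 0.50 and *il17rd*, a feedback inhibitor, by 2.05 ± 0.44, and 1 lower (4.8%). In neurons 8 were higher (32.3%), a share of the 27 genes no larger than that of all genes, with *etv1* (4.82 ± 0.44), *flrt1a* (4.50 ± 0.48) and *spred3* (4.34 ± 0.55), and 10 were lower (12.2%). Immune cells had 1 higher (20.4%) and 12 lower (13%). Dermal fibroblasts had 7 higher (12%) and vascular smooth muscle 4 higher (7.49%), and none lower in either. Epithelial cells had 1 higher (12.1%) and 2 lower (3.2%), and myelinating glia 1 higher (8.74%) and 3 lower (2.52%).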

How the data were processed

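The authors dissected and dissociated calvaria, sorted live cells, made 10x 3′ v2 libraries and counted them with Cell Ranger at default settings on GRCz11; the methods and the file headers name different releases, and the sources used here do not give the annotation. The deposited values are raw counts of UMIs per gene and barcode, with 39988 genes. The submitters' notes name Seurat 4.1.1, which was not used here. No column of results of the authors' comparisons was used.

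Cells with 200 to 2500 genes and under 25% of UMIs on 6 mitochondrial genes were kept, as in the study's filter. A cell needed at least 2 markers of a gate's list (3 for cartilage, neurons, immune cells and vascular smooth muscle), with *pah* among them for dermal fibroblasts. Its summed share of UMIs on the list had to be at least 3 times that of all kept cells of its library. This factor was 0.5 for mesenchyme and 1 for neurons and immune cells. The cut in share thus differed between libraries with their mix of cells, and its part in the differences was not tested. Bone, cartilage, dermal and muscle gates took precedence over mesenchyme. The limits were set on markers and class sizes. Cells with 2 or more lists (787) and with none (6968) were left out, and no doublet caller was run, so mixed droplets within 1 gate remain. Totals were 6986539 and 7873717 UMIs in the adult libraries and 22012568 and 24854689 in the juvenile libraries.

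UMIs were summed per library and gate of at least 10 cells and tested with edgeR 4.0.16 (R 4.3.3, limma 3.58.1; TMM, filterByExpr, quasi-likelihood), with library as a block for gates, pairs and the interaction of stage and gate, and without it for stages. CPM have exact Poisson intervals at 95%, and a level of 0 is set against 3 counts. Cells were thinned to 1000 UMIs to compare shares. Alternatives were library totals, no filter, DESeq2 1.42.0, gates with 1 marker more or fewer, all barcodes, no block, each library left out, and the libraries depleted of YFP+ cells alone; sums of at least 20 cells were added after seeing the data. The named genes were all symbols matching the rule, with full values from 20 UMIs over the gated cells. Members and lists were chosen with earlier results of these data known. The fit was tested on simulated data made for the stage comparison in mesenchyme, where 169 of 200 changed genes were recovered, with 7 false calls. Recovery at the low UMI counts of many family genes, or at the spread between adult libraries seen for *fgfbp2a*, was not tested. Python 3.11.15 with pandas 2.3.3, numpy 2.4.6, scipy 1.17.1 and matplotlib 3.10.9 were used. Replicate numbers follow accession order and name libraries only.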

Additional observations from a re-analysis of the deposited data

Results flagged for a closer look

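A signal of 4 genes appeared in cells that no comparison used. Of the cells outside the gates, 74 held at least 3 of 7 hair cell genes, and they held 277996 UMIs. That list was drawn up after cells outside the gates with *fgf10a* and *fgf10b* had been seen. The levels of *fgf10a* and *fgf10b* in the 74 cells are therefore not independent of that choice. *fgf10b* had 72 UMIs there, 259 CPM or 55.4% of its UMIs outside the gates, against 3.34 CPM in the other cells outside the gates. *fgf22* had 45 UMIs (162 CPM, against 3.57 CPM), *fgf10a* had 44 UMIs (158 CPM, against 15.1 CPM) and *fgfr1op* had 21 UMIs (75.5 CPM, against 14.6 CPM). By library, *fgf10b* had 812 CPM in 14 such cells of adult replicate 1, against 157 and 44.4 CPM in 27 and 33 such cells of the juvenile libraries, while *fgf22* had 0 UMIs in the adult cells, against 78.7 and 288 CPM in the juvenile ones.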

How the results depend on the processing

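No paired analysis was possible because the adult and juvenile libraries came from separate pools of fish. For stages the 6 calls became 17 with no filter on low counts, of which 3 were among the 6, and 4 with a looser gate, of which 1 was. With a library left out there were 3 to 10 (3 without adult replicate 1, 10 without adult replicate 2), of which 2 to 5 were among the 6. For gates the 71 calls became 47 with a looser gate (43 of them among the 71) and 57 to 69 with a library left out; with no library block they were 61. For pairs of gates the 34 calls became 20 with no library block, 17 with a looser gate (16 of them among the 34), and 16 to 30 with a library left out (16 without juvenile replicate 1, 21 without juvenile replicate 2). For the difference of stage effects between gates 0 calls became 1 with DESeq2, while leaving out a library gave 0 each time. One value reversed: *fgfbp2a* in vascular smooth muscle minus endothelial cells was -0.036 with a looser gate (adjusted p = 0.997, edgeR). The cause of these changes was not tested. The losses named for single calls are not full lists, and a call may also have been lost under settings not named beside it. Of 1421 values of named tests under the alternatives, 1193 kept their direction and side of the threshold, 206 lost and 14 gained a call, and 7 moved. Of 132 levels, 124 stayed within the spread between libraries. Depth limits the adult neural and cartilage gates most, and with 1 adult cartilage library no leave-one-out was possible there.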
